A study of Mus musculus with 9 samples.

Results

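Lamp5 neurogliaform interneurons of the mouse cortex and hippocampus were studied here as 243 nuclei, out of 74895 nuclei kept in 9 single-nucleus RNA sequencing libraries. A nucleus was chosen by its counts of unique molecular identifiers (UMIs, each standing for 1 captured RNA molecule). It had at least 2 UMIs of Gad1 plus Gad2 and more of these than of Slc17a7 plus Slc17a6, at least 2 UMIs of Lamp5, and at least 1 UMI of Adarb2 or Lhx6. It had at most 1 UMI of Sst and no UMI of Vip, Pvalb, Drd1 or Drd2. The rule therefore fixed the levels of these genes, which are given below as descriptions only. The 243 nuclei are called Lamp5-selected nuclei, because 59 of them held several neurogliaform genes at low levels and were led by other genes, as described below.

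The libraries came from pooled cortex and hippocampus of wild-type (WT) C57BL/6 male mice, 1 library for each labelled sample, in 3 groups of 3. All groups received an adeno-associated virus (AAV) with the PHP.V1 capsid into the retro-orbital sinus, 8 weeks before tissue collection. Its short CLDN5 promoter (sCLDN5) is active in endothelial cells, so the neurons were not the target of the transgene. Young AAV-EGFP mice (5 months old by the methods) and aged AAV-EGFP mice (19 months) carried the control EGFP, and aged AAV-B3GNT3 mice (19 months) carried B3GNT3, a glycosyltransferase that lengthens the sugar chains of mucin-domain proteins. For ageing, the aged AAV-EGFP samples were set against the young ones, which asked what differs in aged mice under the control virus. By the paper's methods, its aged mice came from a National Institute on Aging colony and its young mice from Jackson Laboratories. Age and supplier therefore cannot be told apart in this comparison. The treatment comparison set aged AAV-B3GNT3 against aged AAV-EGFP and asked what differs with endothelial B3GNT3. Both use the same 3 aged AAV-EGFP libraries, so their changes are not independent of each other.

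Neurogliaform cells are small interneurons with a dense axon, found in the upper cortical layers and in the outermost layer of the hippocampus. They release GABA diffusely enough to reach slow GABA-A and GABA-B receptors on many neighbouring cells, and they are coupled by gap junctions. Lamp5 encodes a membrane protein of GABAergic vesicles, Adarb2 marks interneurons born in the caudal ganglionic eminence, and Lhx6 marks those born in the medial ganglionic eminence.

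The 9 libraries held between 47332047 and 79964605 UMIs. Lamp5-selected nuclei numbered 32, 29 and 54 in young AAV-EGFP replicates 1, 2 and 3, 33, 18 and 20 in aged AAV-EGFP mice, and 9, 19 and 29 in aged AAV-B3GNT3 mice. Their summed UMIs were lowest (102975) in aged AAV-B3GNT3 replicate 1 and highest (626331) in young AAV-EGFP replicate 3, and the median per nucleus ran from 8650 to 12415. The shallowest sum therefore had the widest counting error. Pairs of libraries shared 7 to 37 cell barcodes. B3gnt3, the targeted gene, had UMIs in these neurons in 1 of 9 libraries (young AAV-EGFP replicate 3, at 1.62 CPM, which is UMIs per 1000000 of the sum, here with the trimmed mean of M values, TMM, as scaling). This says nothing of the transgene in endothelial cells.

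Markers of other cells were present in the sums, some lists below and some near or above their level in all kept nuclei. The summed level of 9 oligodendrocyte genes was 258 to 302 CPM in the young AAV-EGFP sums, 250 to 809 in aged AAV-EGFP mice and 255 to 730 in aged AAV-B3GNT3 mice. The 8 astrocyte genes summed to 357 to 691, the 8 microglia genes to 25.1 to 71.3, and the 8 endothelial and mural genes to 0 to 27.4 over all libraries, with Tmem119 of microglia at 0 throughout. The 10 excitatory neuron genes, of which Camk2a (1039 UMIs) and Prox1 (297) gave most, summed to 772, 489 and 596 CPM in young AAV-EGFP replicates 1, 2 and 3. They summed to 486, 628 and 648 in aged AAV-EGFP mice and 1126, 741 and 705 in aged AAV-B3GNT3 mice. The last group thus lay above aged AAV-EGFP without overlap. The 9 striatal genes, with Drd1 and Drd2 at 0 by the rule and Pde10a giving most of the sum, lay the other way, at 1744 to 2385 in aged AAV-EGFP mice and 845 to 1712 in aged AAV-B3GNT3 mice, with 2056 to 2655 in young mice. The 7 Vip and Sncg interneuron genes, of which Cnr1 gave most and Vip and Sncg were at 0, also separated, at 155 to 216 against 97.1 to 144 in the treatment comparison, with 89.4 to 193 in young mice. In all kept nuclei the striatal genes summed to 1190 to 2215 and the Vip and Sncg genes to 71.2 to 128, so neither list was low here. The 8 Sst and Pvalb interneuron genes, of which Erbb4 gave most, summed to 7147 to 12322, against 1699 to 2300 in all kept nuclei. The 6 oligodendrocyte precursor genes summed to 195 to 502, against 405 to 613. Lhfpl3 (505 UMIs) and Vcan (323) gave most of this sum, with Pdgfra, Cspg4, Olig2 and C1ql1 at 13, 7, 6 and 0. Among 4 interneuron classes, Vcan was highest in the Lamp5-selected nuclei of all 9 samples, at 120 CPM against 16.1 in Vip interneurons. Prox1 of the excitatory list is used below as a caudal interneuron gene. The part of other-cell transcripts in the comparisons below was not tested.

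The share of Lamp5-selected nuclei among all kept nuclei was 0.351%, 0.294% and 0.899% in young AAV-EGFP replicates 1, 2 and 3. It was 0.46%, 0.18% and 0.245% in aged AAV-EGFP mice, and 0.146%, 0.19% and 0.348% in aged AAV-B3GNT3 mice. The groups overlapped, and young AAV-EGFP replicate 3 stood highest of the 9. An F statistic permuted exactly over all 1680 assignments of samples gave p = 0.25 (n = 3 per group; the F statistic takes differences in either direction), or 0.375 adjusted over the 3 shares tested.

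Among the nuclei of 4 interneuron classes (Lamp5, Vip, Sst and Pvalb, 1188 in all, chosen by like rules), Lamp5-selected nuclei were 34.0% ± 12.1 (SD, n = 3) in young AAV-EGFP mice. They were 15.6% ± 10.6 in aged AAV-EGFP mice and 16.6% ± 5.31 in aged AAV-B3GNT3 mice. By sample, the shares were 29.4%, 25% and 47.8% in young mice, 27.7%, 8.29% and 10.8% in aged AAV-EGFP mice, and 10.6%, 18.4% and 20.7% in aged AAV-B3GNT3 mice. All 3 aged AAV-B3GNT3 shares lay below all 3 young ones, while aged AAV-EGFP replicate 1 lay inside the young range. This separation was not kept at equal depth. With nuclei thinned at random to 5000 UMIs each, aged AAV-B3GNT3 replicate 3 (26.5%) lay above young replicate 2 (24.1%). At 2000 UMIs, aged AAV-B3GNT3 replicate 2 (29.4%) lay above young replicates 2 (15.4%) and 3 (25%), on 17, 13 and 8 interneurons. The exact permutation p of the unthinned shares over all 3 groups was 0.107 (n = 3 per group), or 0.321 adjusted over the 3 shares. The exact permutation p for ageing was 0.2 and for treatment 0.9, where 3 samples against 3 cannot give a p below 0.1. Exact (Clopper-Pearson) 95% binomial intervals ran from 38.3 to 57.4% in young replicate 3 and from 4.99 to 12.8% in aged AAV-EGFP replicate 2. They cover counting error only.

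The denominator moved too. Sst interneurons were 9.48 to 17.4% of the 4 classes in young AAV-EGFP mice, 35.3 to 40.6% in aged AAV-EGFP mice and 15.5 to 24.7% in aged AAV-B3GNT3 mice, which is a description with no test. A lower share of Lamp5-selected nuclei and a higher share of other classes cannot be told apart within such a ratio. Without aged AAV-EGFP replicate 1, the exact permutation p of the Lamp5 share among interneurons was 0.025 before adjustment (n = 2 or 3 per group). That was the lowest p of the fits without 1 library, where all samples gave 0.107. The sample left out was the aged AAV-EGFP sample inside the young range. Its removal separates these groups by construction, so this p supports no difference.

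**Figure D1:**
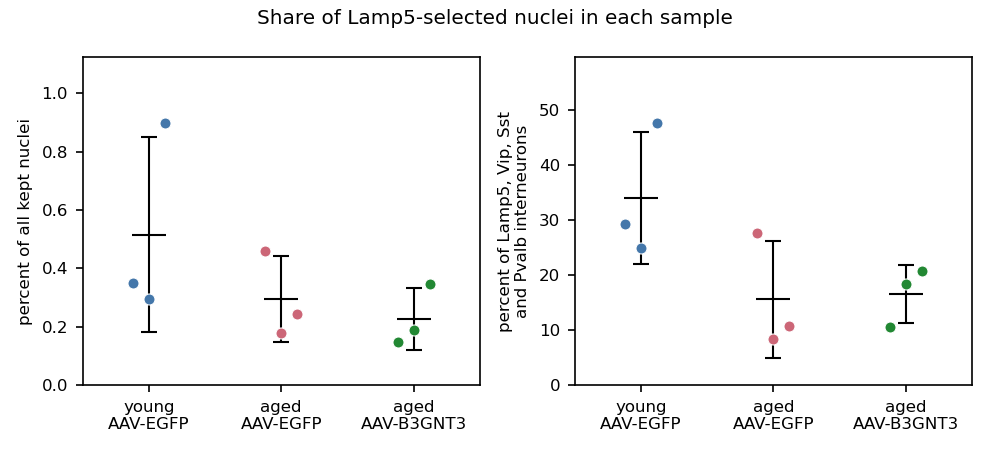
Share of Lamp5-selected nuclei in each sample, as a percent of all kept nuclei (left) and of the nuclei of 4 interneuron classes (right). Points are samples, horizontal bars means and error bars SD (n = 3). The young AAV-EGFP samples run from 25 to 47.8% on the right and the aged AAV-EGFP samples from 8.29 to 27.7%, with 1 of the aged samples inside the young range.

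Of the 243 nuclei, 127 had exactly 2 Lamp5 UMIs, the least the rule allows, and 116 had 3 or more. Another 431 nuclei met every other condition with 1 Lamp5 UMI. The pooled Sv2c level was 298 CPM in the nuclei just outside, 295 in those with 2 Lamp5 UMIs and 387 in those with 3 or more. Ndnf stood at 80.7, 79.3 and 83.1 in the same order. Npy stood at 65.2, 98.6 and 111, so the markers differed in how they followed the Lamp5 count. Another 11 nuclei met the Gad and Lamp5 conditions but held Vip UMIs, and the other conditions were not applied to them.

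The Lamp5-selected nuclei carried genes that the other interneuron classes held at low levels. These levels are raw CPM of the summed counts, not corrected for gene length, and are compared between classes for 1 gene at a time. Since the same counts chose the classes, they are given with no test. Sv2c, a synaptic vesicle glycoprotein, stood at 341 CPM against 16.1 in Vip, 16.6 in Sst and 9.65 in Pvalb interneurons, and was highest in the Lamp5-selected nuclei of all 9 samples (243 to 429). Ndnf, a secreted neurotrophic factor used to mark layer 1 neurogliaform cells, stood at 81.2 against 1.98, 2.99 and 0.508, and was again highest in all 9. Of 15 neurogliaform genes at 20 CPM or more in some class, these 2 had that pattern, which 2.1% of all 7222 genes at such a level showed.

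Other neurogliaform genes had less regular patterns. Hapln1, which links hyaluronan in the extracellular matrix, stood at 80.8 CPM against at most 10.7, highest in 8 of 9 samples. Reln, the secreted glycoprotein reelin, stood at 1007 but also at 920 in Sst interneurons, and Nxph1, a neurexin ligand, at 2327 against 3247 in Sst and 2391 in Pvalb interneurons. Npy, a neuropeptide of neurogliaform and Sst cells, stood at 105 against 76.5 in Sst interneurons, ranging from 32.0 to 466 over samples. Kit, a receptor tyrosine kinase, stood at 320 against 225 in Vip interneurons. Cxcl14, a chemokine, was lower (7.79) than in Vip interneurons (36.6), and Krt73 and Sncg had no UMI in any of the 9 sums. The upper limit that a count of 0 allows, taken as 3 counts over all 9 sums, is 1.11 CPM for both. Sncg and Cck of this list are also among the Vip and Sncg interneuron genes above, so they are not particular to neurogliaform cells.

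Some genes of the synaptic lists also stood highest in the Lamp5-selected nuclei of all 9 samples, beside 2.1% of all genes. They were 4 of 19 measured GABA receptor genes, 1 of 9 genes of GABA synthesis and release, 2 of 13 neuromodulator receptors, 1 of 22 glutamate receptors, 1 of 38 ion channels, 1 of 20 adhesion genes and 1 of 21 genes of the release machinery, so most members of each list did not. Pde11a, a phosphodiesterase for cAMP and cGMP, stood at 697 CPM against 61.6 in Vip interneurons, the next class, and was highest in all 9 samples. Cacna2d1, a subunit of voltage-gated calcium channels, stood at 1599 against 343, and Gabra5, a subunit of extrasynaptic GABA-A receptors, at 106 against 19.8. The GABA receptor genes Gabra5, Gabrb2 and Kctd16 were highest in all 9 samples. Kctd16, an auxiliary subunit of GABA-B receptors, stood at 3452 against 1481 in Vip interneurons. Grin2a, an NMDA receptor subunit, stood at 3425 against 1305 and Rims1, an active zone protein, at 3272 against 1401, both next highest in Sst interneurons. The opposite held for Kcnc2, a fast potassium channel subunit (317 against 672 to 2611), and for the adhesion genes Nrxn3 and Cntn4. These 3 were lowest in all 9 samples, as were 0.651% of the 7222 genes.

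The caudal gene Prox1 stood at 110 CPM, between Vip (285) and Sst interneurons (7.60). The medial genes Sox6 and Satb1 stood at 36 and 20.02, against 1118 and 472 in Sst interneurons. Of the 8 origin genes, 4 were tested between study groups and 0 were called, beside 0.0558% of all genes with ageing and 0% with treatment. The caudal Prox1 and Nr2f2 had changes of 0.07 and -0.32 with ageing and 0.42 and 0.56 with treatment, and the medial Sox6 and Satb1 of -0.79 and -1.23 with ageing and -1.67 and -2.02 with treatment, with edgeR adjusted p from 0.643 to 0.979. Most Sox6 and Satb1 UMIs (70 and 45) lay in the Meis2 and Foxp2 group of nuclei described below. The Nos1 and Lhx6 group held 4 and 2. Nuclei with Lhx6 and no Adarb2 were 4.66% ± 2.38 (SD, n = 3) of the Lamp5-selected nuclei in young AAV-EGFP mice, 7.58% ± 8.44 in aged AAV-EGFP mice and 3.45% ± 5.97 in aged AAV-B3GNT3 mice. The rule used both genes, so this share is a description.

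**Figure D2:**
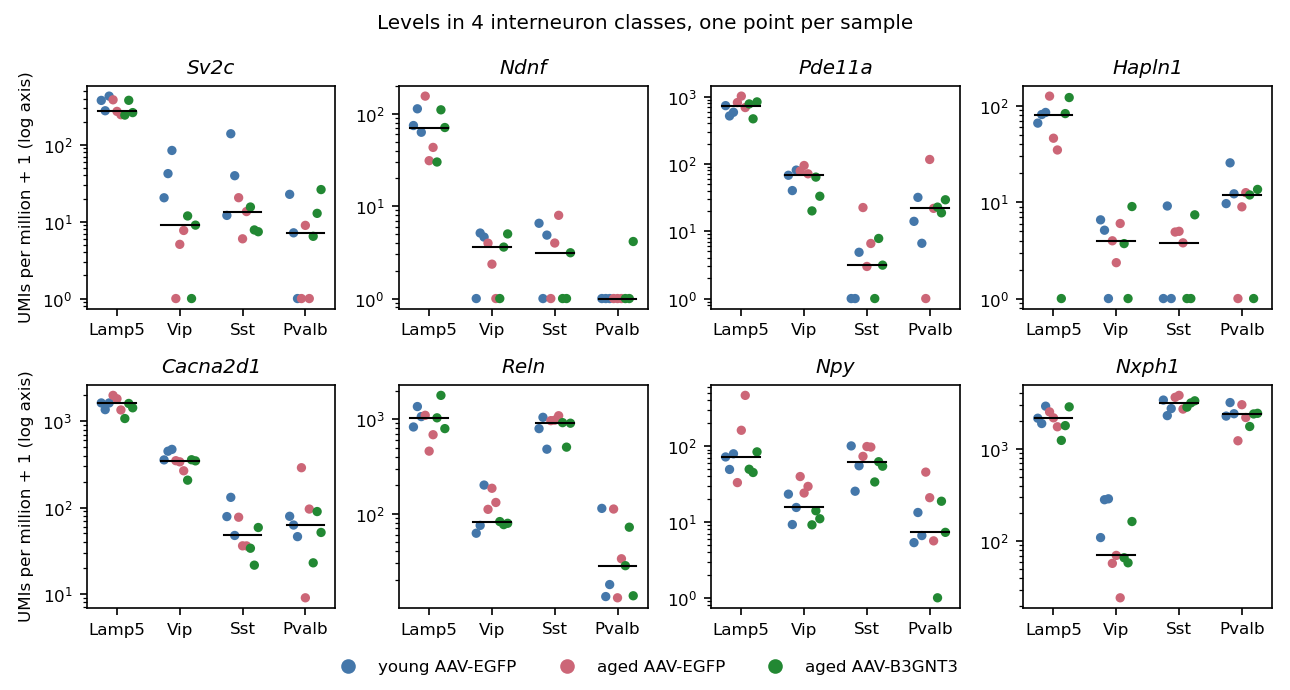
Levels of 8 genes in the summed nuclei of 4 interneuron classes, as CPM plus 1 on a log axis. Each point is a sample, coloured by study group, and the bar is the median of 9. Sv2c, Ndnf, Pde11a and Cacna2d1 lie highest in the Lamp5-selected nuclei of all 9 samples, while Reln, Npy and Nxph1 overlap with Sst interneurons.

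The Lamp5-selected nuclei were not of 1 kind. Clustering into 4 groups (a number chosen after the data were seen) gave groups that are named here by a pair of genes high in each, chosen after their values were seen and not always its leading genes, and described with no test. The largest, with 100 nuclei, was led by Npy and also held Kit, at 226 and 555 CPM, with Sv2c at 501, Pde11a at 1142 and no Lhx6 UMI. The second, with 50 nuclei, held Ndnf at 265 and Reln at 2741, along with Npas3, a transcription factor, at 3116 against 181 in the other Lamp5-selected nuclei. All nuclei of both groups had Adarb2 and no Lhx6.

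A group of 34 nuclei was led by Cntnap4, Col25a1 and Myo5b and held Lhx6 at 155 CPM and Nos1, the neuronal nitric oxide synthase, at 227. Among them, 12 had Lhx6 and no Adarb2, and 18 had both. Hapln1 (217) and Id2 (93.6) were highest in this group, and Ndnf had no UMI in it.

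The leading genes of the remaining 59 nuclei went against the neurogliaform label. They were Foxp2 (674 CPM against 9.21 in the other Lamp5-selected nuclei), Meis2 (1049 against 25.6), Slit3, Kcnh5, Rgs9, Rarb and Chrm2. Foxp2, Meis2, Rarb and Rgs9 are known from other GABAergic lineages, including striatal neurons. Npy (20.2), Ndnf (17.5), Kit (32.3), Hapln1 (18.8) and Nxph1 (849) were low there. Npy (12.3), Kit (29.6) and Ndnf were lower still in the Nos1 and Lhx6 group, whereas Hapln1, Nxph1, Sv2c (165) and Pde11a (147) were lowest in these 59 nuclei. Of these 59 nuclei, 12 carried a doublet mark, against 3 of the other 184, and their oligodendrocyte markers summed to 700 CPM against 153 to 330 in the other groups. The excitatory markers summed to 923 against 394 to 572, and the astrocyte markers to 845 against 197 to 444. Other lists were not highest there. The precursor markers summed to 496 against 158 to 500, and the striatal markers to 2295 against 1670 to 2530. For both, the Nos1 and Lhx6 group was highest. The Vip and Sncg genes summed to 113 against 71.4 to 279. The microglia (34.98), endothelial and mural (4.04), and Sst and Pvalb (5530) sums were lowest in this group. No cell type name is given to this group.

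The makeup differed between samples. The Ndnf and Reln group gave 7, 10 and 10 nuclei in the 3 young AAV-EGFP samples, 6, 0 and 1 in aged AAV-EGFP mice and 2, 9 and 5 in aged AAV-B3GNT3 mice. Thus 2 of 3 aged AAV-EGFP samples had at most 1 such nucleus. The Npy and Kit group was 24.1 to 46.9% of the Lamp5-selected nuclei in young samples, 36.4 to 65.0% in aged AAV-EGFP mice and 26.3 to 44.8% in aged AAV-B3GNT3 mice. The Meis2 and Foxp2 group made up 18.8 to 31.0%, 20 to 27.8% and 20.7 to 22.2% in the same order, with overlapping ranges.

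**Figure D3:**
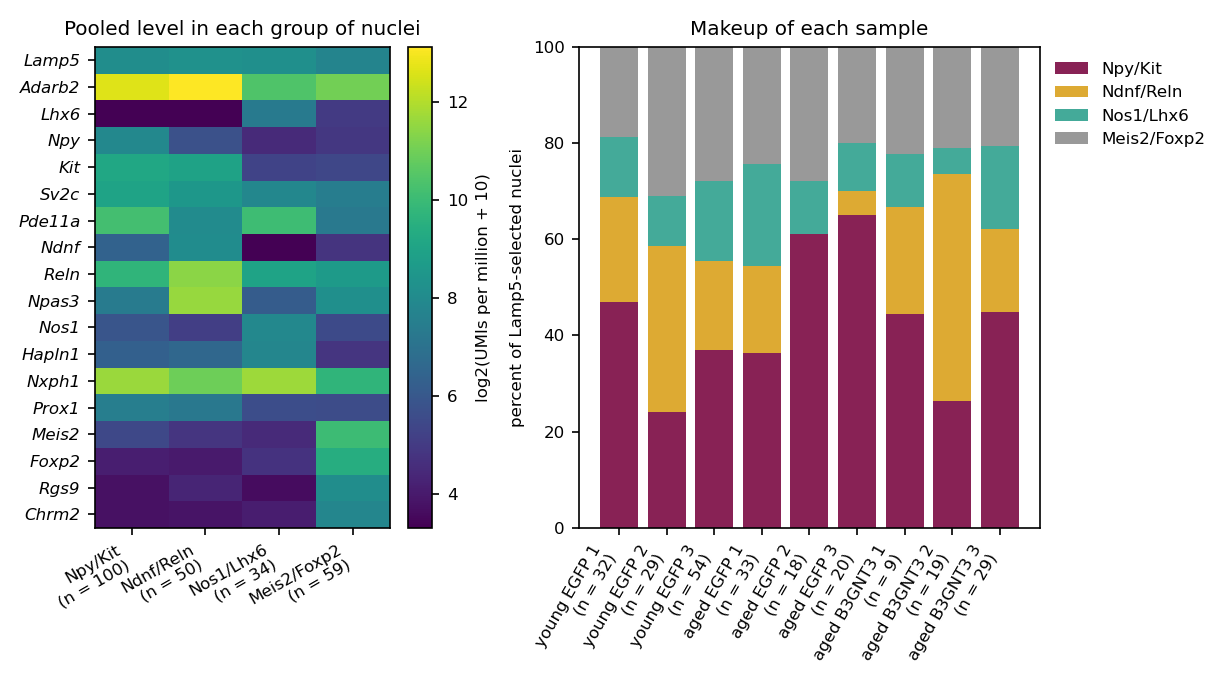
Left, pooled level of 18 genes in the 4 groups of Lamp5-selected nuclei, as log2(CPM + 10). Right, percent of each sample's Lamp5-selected nuclei in each group, with the number of nuclei below each bar. Meis2, Foxp2, Rgs9 and Chrm2 are high in the fourth group alone, and aged AAV-EGFP replicates 2 and 3 hold 0 and 1 nuclei of the Ndnf and Reln group.

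For the comparisons between study groups, counts were summed over the Lamp5-selected nuclei of each sample and 5374 of 17675 genes with a UMI passed the filter on low counts. A sum cannot tell fewer nuclei of a kind from less RNA in each nucleus. The groups of nuclei were clustered from these same counts. A fit without the group that holds most UMIs of a gene removes most of its signal by construction. Such fits are given as descriptions. Levels from here on are CPM with TMM scaling, and changes are log2 fold changes from edgeR's quasi-likelihood test, with Benjamini-Hochberg adjustment over all genes tested.

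With ageing, 3 genes fell and none rose at an adjusted p under 0.05, which is 0.0558% of the genes tested. The share with an unadjusted p under 0.05 was 8.76%, and DESeq2 called 6 genes (0.166%), which were the 3 of edgeR and Npas3 (adjusted p = 0.00187), AC149090.1 (0.00224) and Dscam (0.00293). The 3 were Fam19a1, Pde1a and Nell1. Of their young UMIs, 254 of 320, 171 of 280 and 168 of 205 lay in the Meis2 and Foxp2 group. No gene past the threshold belonged to the neurogliaform, GABA, receptor, channel or adhesion lists described below.

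Fam19a1 encodes a small secreted protein of the brain (also named Tafa1) and lies on chromosome 6 at 96113154 to 96657198, plus strand, in GRCm38, with 1700123L14Rik on the other strand. Its level was 299, 262 and 223 CPM in young AAV-EGFP replicates 1, 2 and 3, 28.3, 10.6 and 24.8 in aged AAV-EGFP mice, and 266, 72.7 and 85.8 in aged AAV-B3GNT3 mice. All young samples lay above all aged AAV-EGFP samples, and all aged AAV-B3GNT3 samples also lay above the latter. The ageing change was -3.49 ± 0.42 (SE, log2; edgeR adjusted p = 0.00104). The treatment change was 2.43 ± 0.49 and did not pass (edgeR adjusted p = 0.189). With each library left out in turn, the ageing fall passed in 9 of 9 fits, with an edgeR adjusted p up to 0.0133.

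A few nuclei gave much of this signal, although 66 of 115 young nuclei had a Fam19a1 UMI. In young AAV-EGFP replicate 1, 65 of 105 Fam19a1 UMIs came from 1 nucleus, and in aged AAV-B3GNT3 replicate 1, 28 of 29 did. Pooled by group of nuclei, the level in the Meis2 and Foxp2 nuclei was 683 CPM in young AAV-EGFP mice (30 nuclei), 12.5 in aged AAV-EGFP mice (17 nuclei) and 351 in aged AAV-B3GNT3 mice (12 nuclei). In the Npy and Kit nuclei it was 83.9, 29.6 and 38.8. When the Meis2 and Foxp2 group was left out, the ageing change of Fam19a1 was -1.39 (edgeR adjusted p = 0.364), and without nuclei that held 3 or more UMIs of Foxp2 plus Meis2 it was -2.55 (edgeR adjusted p = 0.153). When the upper limit of 5000 genes per nucleus was lifted, which added 32 nuclei, 10 of them in aged AAV-EGFP replicate 1, it turned to 0.29 (edgeR adjusted p = 0.985).

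Pde1a encodes a calmodulin-dependent phosphodiesterase and lies on chromosome 2 at 79834453 to 80129458, minus strand. Its level was 214, 245 and 215 CPM in young AAV-EGFP mice, 42.4, 63.4 and 16.5 in aged AAV-EGFP mice, and 321, 166 and 85.8 in aged AAV-B3GNT3 mice. Young and aged AAV-EGFP samples did not overlap, nor did the aged AAV-EGFP and aged AAV-B3GNT3 samples. The ageing change was -2.47 ± 0.41 (SE, log2; edgeR adjusted p = 0.0285) and the treatment change 2.10 ± 0.45 (edgeR adjusted p = 0.22).

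Pde1a had at most 28 UMIs in 1 nucleus, against 65 for Fam19a1. In the Ndnf and Reln nuclei it stood at 285, 28.5 and 315 CPM in young AAV-EGFP mice and in aged mice with AAV-EGFP and AAV-B3GNT3, where the aged AAV-EGFP value rests on 2 UMIs in 7 nuclei. In the Meis2 and Foxp2 nuclei it stood at 460, 79.1 and 313. Without the latter group the ageing change was -2.59, with an edgeR adjusted p of 0.267. With no upper limit on genes per nucleus it was -0.19 (edgeR adjusted p = 0.999), and the treatment change 0.36 (edgeR adjusted p = 0.984). Without young AAV-EGFP replicate 1, 2 or 3 or aged AAV-EGFP replicate 3, Pde1a did not pass, with edgeR adjusted p from 0.0523 to 0.124.

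Nell1 encodes a secreted glycoprotein and lies on chromosome 7 at 49974864 to 50866608, plus strand, where Nell1os lies on the other strand. Its level was 157, 235 and 131 CPM in young AAV-EGFP mice, 62.2, 15.9 and 33.0 in aged AAV-EGFP mice, and 45.8, 20.8 and 39.8 in aged AAV-B3GNT3 mice. The aged groups overlapped each other and lay below the young samples. The ageing change was -2.05 ± 0.36 (SE, log2; edgeR adjusted p = 0.0416), and the treatment change was -0.21 ± 0.49 (edgeR adjusted p = 0.958). In young AAV-EGFP replicate 2, 44 of 69 Nell1 UMIs came from 1 nucleus, and leaving out young AAV-EGFP replicate 1 or 2, aged AAV-EGFP replicate 2 or 3, or aged AAV-B3GNT3 replicate 1 ended the call (edgeR adjusted p from 0.0572 to 0.283). Nell1 also did not pass with only the 2 groups compared (edgeR adjusted p = 0.0756) or without the Ndnf and Reln group (-2.61, edgeR adjusted p = 0.171). Without nuclei that held 3 or more UMIs of Foxp2 plus Meis2, the ageing change of Nell1 was -0.69 (edgeR adjusted p = 0.706). It was -0.63 with no upper limit on genes per nucleus (edgeR adjusted p = 0.892) and -0.81 with 3 or more Lamp5 UMIs (edgeR adjusted p = 0.81). Without the Meis2 and Foxp2 group as clustered, Nell1 did not pass the filter on low counts, and edgeR called 0 of 4049 genes with ageing (339 at an unadjusted p under 0.05).

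**Figure D4:**
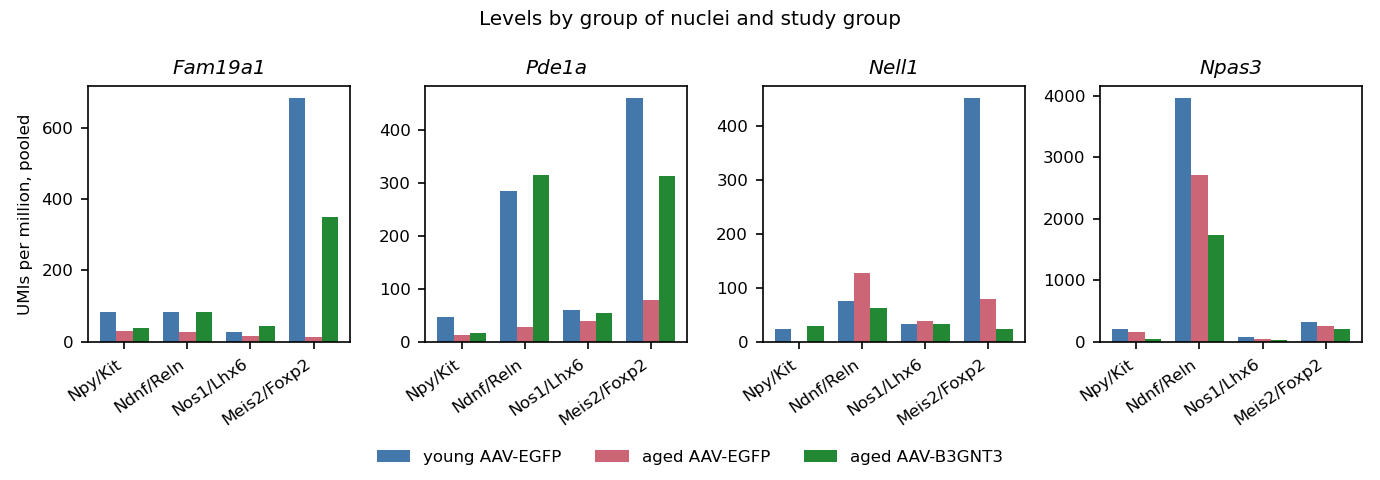
Pooled CPM of 4 genes in each group of Lamp5-selected nuclei, by study group. Bars pool 7 to 42 nuclei and have no error bar, since they are sums over samples. Fam19a1 and Nell1 are highest in the young Meis2 and Foxp2 nuclei, at 683 and 451, and Npas3 in the Ndnf and Reln nuclei.

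The ageing falls closest to the threshold were Npas3 and Dscam, a cell adhesion gene of neurons. Npas3 stood at 1253, 1471 and 683 CPM in young AAV-EGFP mice, 509, 285 and 334 in aged AAV-EGFP mice and 586, 634 and 312 in aged AAV-B3GNT3 mice. Its ageing change was -1.55 ± 0.30 (edgeR adjusted p = 0.0653). Without the Ndnf and Reln group the change was -0.30 (edgeR adjusted p = 0.878), while within the Ndnf and Reln nuclei the pooled level was 3963 CPM in young and 2710 in aged AAV-EGFP mice. That group was led by Npas3 and held 1058 of the 1294 young Npas3 UMIs, so the fit without it cannot locate the fall. Without young AAV-EGFP replicate 3, aged AAV-EGFP replicate 1 or aged AAV-B3GNT3 replicate 3, Npas3 passed (edgeR adjusted p from 0.0165 to 0.0446). Dscam had a difference of -1.59 ± 0.30 (edgeR adjusted p = 0.0653). It passed without aged AAV-EGFP replicate 1, at -2.21 (edgeR adjusted p = 0.00207), and without nuclei that held 3 or more UMIs of Foxp2 plus Meis2, at -1.82 (edgeR adjusted p = 0.00743), where it was the 1 gene called. With no upper limit on genes per nucleus it was -0.90 (edgeR adjusted p = 0.843).

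Among higher values in aged AAV-EGFP mice, none passed. The smallest adjusted p was that of AC149090.1, a protein-coding gene on an unplaced scaffold, at 316, 74.9 and 270 CPM in young AAV-EGFP mice and 667, 877 and 920 in aged AAV-EGFP mice. Its change was 1.87 ± 0.37 (edgeR adjusted p = 0.0695), and it was 1054, 400 and 677 in aged AAV-B3GNT3 mice. AC149090.1 passed without aged AAV-EGFP replicate 1 (edgeR adjusted p = 0.0301) or aged AAV-B3GNT3 replicate 2 (edgeR adjusted p = 0.0446), and without any other 1 library its edgeR adjusted p was up to 0.302. The long non-coding C130071C03Rik (0.91), Caln1, a calcium-binding protein of neurons (0.76), and the antisense transcripts Gm37679 (1.26) and Gm15478 (2.02) followed, with adjusted p from 0.27 to 0.289. The last 2 lie across Astn1 and Atp8a1 on the other strand, and whether the counting used strand is not given in the sources used here.

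With treatment, 0 of 5374 genes passed (0%), and 8.24% had an unadjusted p under 0.05, while DESeq2 on the same sums called 9 (0.209%). Among the 9 were Gm10754 (DESeq2 adjusted p = 0.000261), Fam19a1 (0.00536), Pde1a (0.0128), and Gm46102, Sez6l, Dach1, Zfp385b and Malat1 (each 0.0428). The smallest edgeR adjusted p was 0.0653, for Gm10754, a long non-coding RNA at 113, 143 and 342 CPM in aged AAV-EGFP mice and 0, 5.20 and 15.3 in aged AAV-B3GNT3 mice. Of its 150 UMIs in aged AAV-EGFP mice, 144 lay in the Meis2 and Foxp2 nuclei. Gm46102, another long non-coding RNA, was at 105, 52.9 and 53.6 in aged AAV-EGFP mice and 174, 234 and 211 in aged AAV-B3GNT3 mice, a difference of 1.51 ± 0.29 (edgeR adjusted p = 0.152). Without the Meis2 and Foxp2 group it was the 1 gene of 4049 called with treatment (0.0247%), at 1.71 (edgeR adjusted p = 0.0406). Without the Ndnf and Reln group its difference was 0.65.

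The other genes with the smallest p that met the limits on counts and overlap were not past the edgeR threshold either. Higher in aged AAV-B3GNT3 mice were Ildr2 (1.54) and Sez6l (2.0), and lower were Dach1, a transcription factor (-2.18), Zfp385b (-0.83), Malat1, a nuclear long non-coding RNA (-0.70), and Rbms1 (-1.93). Their edgeR adjusted p ran from 0.22 to 0.26. Without the Meis2 and Foxp2 group, Dach1 was at -0.93, Zfp385b at -0.29, Rbms1 at -0.22 and Ildr2 at 1.02 (edgeR adjusted p from 0.655 to 0.971), while Sez6l was at 2.19 and Malat1 at -0.63. Malat1 stood at 24268, 28138 and 21324 CPM in aged AAV-EGFP mice and 15611, 13454 and 16141 in aged AAV-B3GNT3 mice.

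**Figure D5:**
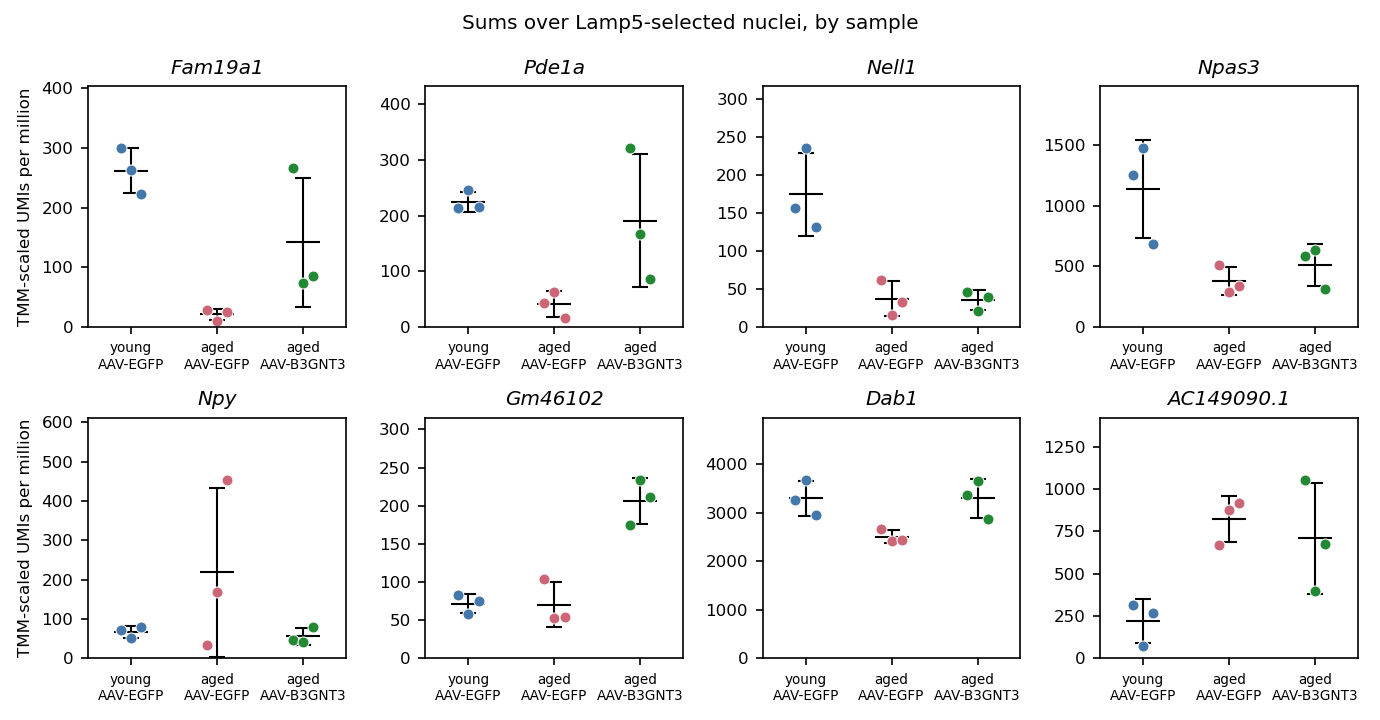
TMM-scaled CPM of 8 genes, summed over the Lamp5-selected nuclei of each sample. Points are samples, horizontal bars means and error bars SD (n = 3). Fam19a1, Pde1a and Nell1 passed the edgeR threshold with ageing, and the other 5 passed it in neither comparison.

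Of the list of 20 neurogliaform genes, 12 were tested, and 0 rose and 0 fell with ageing or with treatment. Over all genes tested, 0.0558% were called with ageing and 0% with treatment. With so few calls over all genes, 0 calls in this or another list says little about its members. The median log2 change of the 12 was 0.02 with ageing, beside 0.01 over all genes tested, and -0.12 with treatment, beside 0.01. The CPM of the groups did not overlap for 8.33% of them in each comparison, beside 15% of all genes tested with ageing and 13.3% with treatment. Sv2c was at 379, 293 and 436 CPM in young AAV-EGFP mice, 407, 285 and 239 in aged AAV-EGFP mice and 229, 358 and 251 in aged AAV-B3GNT3 mice. Its ageing change was -0.23 ± 0.23 (edgeR adjusted p = 0.823). Ndnf, at 74.1, 119 and 63.2, then 164, 31.7 and 41.3, then 27.5, 104 and 67.4 in the same order, overlapped in all 3 groups.

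Of the genes the rule used, Lamp5 stood at 202 to 312 CPM over the 9 sums. Adarb2, an RNA-editing regulator, stood at 5102, 6768 and 6095 in young AAV-EGFP mice, 4541, 3620 and 4785 in aged AAV-EGFP mice and 3491, 3267 and 3498 in aged AAV-B3GNT3 mice. The aged samples of both groups lay below the young ones for Adarb2, a description with no test.

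Npy varied widely within a group. It was at 71.2, 51.1 and 79.3 CPM in young AAV-EGFP mice, 33.9, 169 and 454 in aged AAV-EGFP mice, and 45.8, 41.6 and 79.6 in aged AAV-B3GNT3 mice. Aged AAV-EGFP replicate 1 lay below all young samples while the other two lay above them, and 47 of the 110 UMIs in replicate 3 came from 1 nucleus. The ageing change was 1.64 ± 0.55 (edgeR adjusted p = 0.377) and the treatment change -1.82 ± 0.62 (edgeR adjusted p = 0.482). Without aged AAV-EGFP replicate 1, both passed, at 2.21 (edgeR adjusted p = 0.0039) and -2.39 (edgeR adjusted p = 0.0104). Without aged AAV-EGFP replicate 3, the changes were 0.39 (edgeR adjusted p = 0.889) and -0.57 (edgeR adjusted p = 0.846).

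Reelin and its receptors formed a list of 5 genes, all tested, with 0 called. Over all genes, 0.0558% were called with ageing and 0% with treatment. An unadjusted p under 0.05 was found for 2 of them with ageing and 1 with treatment, beside 8.76% and 8.24% of all genes tested. Reln stood at 826, 1433 and 1075 CPM in young AAV-EGFP mice, 1158, 481 and 664 in aged AAV-EGFP mice and 971, 1683 and 760 in aged AAV-B3GNT3 mice, with all groups overlapping. Dab1, the adaptor that carries the reelin signal, was at 3261, 3673 and 2955, then 2659, 2421 and 2438, then 3371, 3652 and 2867. The aged AAV-EGFP samples lay below the others without overlap, at an ageing change of -0.38 (edgeR adjusted p = 0.485) and a treatment change of 0.40 (edgeR adjusted p = 0.524).

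Genes of GABA handling and reception held no called gene, where 0.0558% of all genes were called with ageing and 0% with treatment. Among 10 genes of GABA synthesis and release tested, 0 were called in either comparison. Gad1 and Gad2, which the rule used, ranged from 429 to 632 and from 455 to 685 CPM. Among 16 GABA receptor genes, 0 were called and 4 had an unadjusted p under 0.05 with ageing and 3 with treatment, beside 8.76% and 8.24% of all genes tested. The groups did not overlap for 5 of the 16 with ageing and 2 with treatment, beside 15% and 13.3% of all genes. Kctd16 was at 3438, 3329 and 3250 in young AAV-EGFP mice, 3730, 4915 and 4138 in aged AAV-EGFP mice and 2950, 2675 and 3155 in aged AAV-B3GNT3 mice. Gabrg3, a GABA-A receptor subunit, was at 3284, 3193 and 2703, then 4235, 5354 and 3857, then 2336, 1704 and 3479. For both genes the aged AAV-EGFP samples lay above those of the other groups, with ageing changes of 0.36 and 0.56 (edgeR adjusted p = 0.504 and 0.436) and treatment changes of -0.53 and -0.82 (edgeR adjusted p = 0.388 and 0.276).

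The wider lists of synaptic and excitability genes gave 0 calls, beside 0.0558% of all genes with ageing and 0% with treatment. They held 10 tested neuromodulator receptors, 21 glutamate receptors, 32 ion channels, 18 adhesion genes and 16 genes of the release machinery. At an unadjusted p under 0.05 with ageing stood, in that order, 2, 1, 2, 3 and 2 of them, beside 8.76% of all genes tested, and with treatment 1, 3, 5, 6 and 2, beside 8.24%. Of the 18 adhesion genes, 13 had lower values with treatment, and the smallest edgeR adjusted p was 0.279, for Lrrtm3. The share of lower values over all genes was not counted. Median changes ran from -0.16 to 0.08 with ageing and from -0.35 to -0.08 with treatment, beside 0.01 over all genes tested in each comparison. Grin2a was at 3018 to 4260 CPM in aged AAV-EGFP mice, around the 3312 to 3860 of young AAV-EGFP. Chrm3, a muscarinic acetylcholine receptor, was at 479, 443 and 381 in young AAV-EGFP mice, 229, 402 and 239 in aged AAV-EGFP mice, and 73.3, 255 and 202 in aged AAV-B3GNT3 mice, with an ageing change of -0.59 (edgeR adjusted p = 0.557). None of the 5 gap junction genes passed the filter on low counts, and Gjd2, the main neuronal one, had UMIs in 2 of 9 sums.

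Cell state lists held no called gene, beside 0.0558% of all genes with ageing and 0% with treatment. Of 18 immediate early genes, 3 passed the filter: Homer1 (-0.78), Nr4a1 (-0.77) and Egr1 (-1.31) all had lower values in aged AAV-EGFP mice, with edgeR adjusted p from 0.377 to 0.649. Of these 3, 2 had an unadjusted p under 0.05 with ageing, beside 8.76% of all genes tested. The CPM of the groups did not overlap for 2, beside 15%. The filter left 12 of 45 respiratory chain genes, 11 of 22 chaperones, 14 of 19 insulin and growth genes, 6 of 19 neuropeptide genes and 2 of 61 ribosomal protein genes. In that order, 1, 2, 2, 1 and 0 had an unadjusted p under 0.05 with ageing. With treatment 1, 0, 0, 2 and 0 did, beside 8.24% of all genes tested. Ribosomal protein genes could thus hardly be assessed at this depth. Igf1r, the IGF1 receptor, was at 370, 300 and 233 in young AAV-EGFP mice and 209, 190 and 190 in aged AAV-EGFP mice, a difference of -0.59 (edgeR adjusted p = 0.411).

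Of 6 genes that the study took up in neurons, 5 were tested and 0 called, beside 0.0558% of all genes with ageing and 0% with treatment. This list was drawn from these same libraries, so its direction is no independent evidence. Rims4, an active zone gene, was at 125, 102 and 89.1 CPM in young AAV-EGFP mice, 59.3, 58.1 and 82.5 in aged AAV-EGFP mice, and 82.5, 88.3 and 107 in aged AAV-B3GNT3 mice, with an ageing change of -0.64 (edgeR adjusted p = 0.504). Foxo3, Smad1 and Ccnd2 overlapped in the ageing comparison, and Wnt5a was below the filter.

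The last question was whether the change in Lamp5-selected nuclei differed from that in Vip, Sst and Pvalb interneurons of the same samples. A model over 36 sums, 4 classes in each of 9 samples, tested 7028 genes. The Pvalb sum of aged AAV-EGFP replicate 1 stood apart, with 5 nuclei, 45013 UMIs, and oligodendrocyte and astrocyte markers at 3288 and 2755 CPM, against at most 563 and 937 in the other Pvalb sums. With ageing, 4 genes differed (0.0569%), all with a lower change in the Lamp5-selected nuclei: Npas3, Nell1, Stxbp6 and Oxr1, the last of which falls outside the naming rule and was named after its value was seen. Without that Pvalb sum these 4 passed too (edgeR adjusted p from 0.0113 to 0.048), among 6 genes of 7423. With treatment, 0 genes differed (0%), and 345 had an unadjusted p under 0.05.

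The log2 difference in ageing change was -1.87 ± 0.33 (SE) for Npas3 and -2.75 ± 0.48 for Nell1, both with an edgeR adjusted p of 0.00719. It was -2.94 ± 0.59 for Stxbp6, which binds syntaxin, and -1.28 ± 0.26 for Oxr1, an oxidation resistance gene, both with an edgeR adjusted p of 0.0479. With RLE size factors in place of TMM, Stxbp6 did not pass (edgeR adjusted p = 0.051). Against Vip, Sst or Pvalb interneurons alone, Nell1 and Npas3 passed for Vip only, and Stxbp6 and Oxr1 for none, with each direction kept. Stxbp6 stood at 74.1, 51.1 and 95.5 CPM in young AAV-EGFP mice, 8.48, 37.0 and 0 in aged AAV-EGFP mice, and 110, 10.4 and 98.0 in aged AAV-B3GNT3 mice. Oxr1 stood at 402, 473 and 334 in young AAV-EGFP mice, 192, 275 and 161 in aged AAV-EGFP mice and 174, 197 and 303 in aged AAV-B3GNT3 mice. Of the 100 young Stxbp6 UMIs, 77 lay in the Meis2 and Foxp2 nuclei, as did 168 of the 205 young Nell1 UMIs. The other 3 classes were not searched for this kind of nucleus, and the difference was not tested without it. Fam19a1 and Pde1a did not pass here (edgeR adjusted p = 0.719 and 0.331), so their ageing change was not shown to differ from that of the other interneurons.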

How the data were processed

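Nuclei of pooled cortex and hippocampus were dissociated, stained with Hoechst, sorted as singlets and sequenced with 10x Genomics 3′ chemistry. The deposited values are UMI counts per gene and nucleus, unnormalized whole numbers that the authors made with Cell Ranger on GRCm38 (mm10). The submitters' notes give version 4.0.0 and the matrix headers 7.2.0. Whether intronic reads were counted is not given in the sources used here. The study removed free RNA and doublets with other tools, but the deposited counts precede both steps.

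Kept nuclei had 200 to 5000 genes and no more than 10% mitochondrial UMIs (74895 of 77823 barcodes, 31053 genes listed). The rule for members was applied per nucleus, and doublets stayed in the main results. Scrublet scores (scanpy 1.11.5) marked the highest-scoring barcodes of each sample, at a preset rate of 0.8% per 1000 barcodes, for an alternative only. Members were grouped by Ward clustering of 10 principal components over 1500 variable genes (scikit-learn 1.9.0).

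Member counts were summed per sample, passed through filterByExpr (minimum count 10) and TMM scaling, then modelled in edgeR 4.0.16 (quasi-likelihood, R 4.3.3), all 9 samples in 1 fit, two-sided, at an adjusted p of 0.05. DESeq2 1.42.0 was an alternative, where the study's methods used it as the main test. The difference between classes was an interaction in 1 edgeR fit with sample as a block. Shares were compared by exact permutation of the F statistic. Positions, strands and gene types came from GENCODE vM21 (31011 genes matched).

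Genes were named by rule: per comparison and direction, the largest changes past the threshold with a mean of at least 10 UMIs per sample and groups not overlapping. Where fewer than 5 passed, the 5 smallest p under the same limits were named as not past it. Genes of the identity, origin, study and rule lists, and the highest of each other list, were added. Neat1, B3gnt3, Oxr1, Trpc5, Fgf13, Unc5c and the genes that lead the groups of nuclei were named outside it, after their values were seen. Some genes of the lists are not reported here. The members and the lists were chosen with earlier results of these data known.

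Replicate numbers did not pair the samples: same-number correlations ran from -0.0606 to 0.0808. Replicates within a group differed by more than sampling noise (chi-square over its degrees of freedom, 1.89 to 2.95). The labels do not say whether replicates were separate animals, whereas the study gives 3 mice per group, and replicates were taken as such. On data simulated from these sums, the edgeR test recovered 53.3%, 96.7% and 100% of genes changed by 1, 2 and 3 on the log2 scale with ageing (5361 genes), and 26.7%, 87.3% and 100% with treatment (5278 genes). The class difference test recovered 23.8%, 68.2% and 87.7% with ageing (6997 genes), and 23.4%, 78.1% and 89.2% with treatment (6980 genes). False calls with ageing and treatment numbered 7 and 5 in the first test and 4 and 9 in the second. The simulation gave every gene the same spread between samples (dispersion). It held no genes whose UMIs came mostly from 1 nucleus, so recovery in the real sums can be lower. Other alternatives were RLE scaling, no filter on low counts, only the 2 groups compared, the replicate number as a block, other limits on members, nuclei thinned to a fixed depth, and leaving out each replicate.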

Additional observations from a re-analysis of the deposited data

Results flagged for a closer look

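In 4 genes the ageing change differed between the Lamp5-selected nuclei and the other interneurons by the interaction test (edgeR, adjusted over 7028 genes). The log2 difference was -2.75 for Nell1 and -1.87 for Npas3, both with an edgeR adjusted p of 0.00719. It was -2.94 for Stxbp6 and -1.28 for Oxr1, both with an edgeR adjusted p of 0.0479. With each of 9 libraries left out in turn, the direction was kept in every fit of these 4 genes. Nell1 passed in 7 fits, not without young AAV-EGFP replicate 2 or aged AAV-EGFP replicate 2 (edgeR adjusted p up to 0.274). Npas3 passed in 5, not without young AAV-EGFP replicate 1 or 2 or aged AAV-EGFP replicate 2 or 3 (up to 0.274). Stxbp6 passed in 2, those without aged AAV-EGFP replicate 2 or aged AAV-B3GNT3 replicate 2, and otherwise had an adjusted p up to 0.419. Oxr1 passed in 2, those without young AAV-EGFP replicate 3 or aged AAV-EGFP replicate 1, and otherwise had an adjusted p up to 0.823.

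Pooled over nuclei, Stxbp6 in the Meis2 and Foxp2 group stood at 207 CPM in young AAV-EGFP mice, 29.1 in aged AAV-EGFP mice and 313 in aged AAV-B3GNT3 mice. Nell1 in the Meis2 and Foxp2 group stood at 451, 79.1 and 22.9 in the same order, and Npas3 in the Ndnf and Reln group at 3963, 2710 and 1734. In young and aged AAV-EGFP mice, Nell1 stood at 23.7 and 0 in the Npy and Kit group. It stood at 74.9 and 128 in the Ndnf and Reln group and at 32.3 and 39.1 in the Nos1 and Lhx6 group. Oxr1 was higher in young than in aged AAV-EGFP nuclei in each of the 4 groups of nuclei, from 183 against 113 in the Npy and Kit group to 640 against 321 in the Meis2 and Foxp2 group. These pooled values have no test. Groups of 3 samples were too small for a search for outlying samples.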

How the results depend on the processing

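Calls were few, and their number moved with most choices. With ageing, edgeR called 3 genes, DESeq2 6, edgeR with no filter on low counts 53, with only the 2 groups compared 2 and with a replicate block 9 (AC149090.1, Npas3 and Dscam among them, edgeR adjusted p = 0.0116, 0.0116 and 0.0363). With no upper limit on genes per nucleus edgeR called 0 (371 at an unadjusted p under 0.05), with 3 or more Lamp5 UMIs 0 (210), without nuclei with 3 UMIs of Foxp2 plus Meis2 1, without the Ndnf and Reln group 1 and without the Meis2 and Foxp2 group 0. Leaving out 1 library gave 1 to 22, with 22 without aged AAV-EGFP replicate 1. With treatment, edgeR called 0, DESeq2 9, edgeR with no filter 40, with only the 2 groups compared 1, with a replicate block 2, with Adarb2 required 2, without the Foxp2 or Meis2 nuclei 4 and without the Meis2 and Foxp2 group 1. Leaving out 1 library gave 0 to 8, with 8 without aged AAV-EGFP replicate 1. In edgeR, treatment calls appeared for Fam19a1 without aged AAV-B3GNT3 replicate 2, Pde1a without aged AAV-B3GNT3 replicate 3, Gm46102 without aged AAV-EGFP replicate 1, and Gm10754 without that library or young AAV-EGFP replicate 2 or 3. The replicate numbers did not pair the samples, and the fits without a group of nuclei, without Foxp2 or Meis2 nuclei and at 5000 UMIs, and without 1 Pvalb sum, were chosen after seeing the data. Changes that differed from the other interneurons numbered 4 with ageing, 3 with RLE size factors, 6 without the Pvalb sum of 5 nuclei, 27 with no filter, 0 against Sst interneurons alone (343 at an unadjusted p under 0.05) and 1 against Pvalb interneurons alone, and 0 to 12 without 1 library (0 without young AAV-EGFP replicate 2, 12 without aged AAV-EGFP replicate 1). With treatment they numbered 0, 18 with no filter and 0 to 2 without 1 library.

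Without 1 library, the exact permutation p was 0.143 to 0.657 for the share among all nuclei and 0.025 to 0.325 for the share among interneurons. The share with Lhx6 and no Adarb2 is a description, since the rule used both genes, and its p (0.314 to 0.889 without 1 library) supports nothing. It turned direction with nuclei thinned to 5000 UMIs (exact permutation p = 1) and without aged AAV-EGFP replicate 2 (exact permutation p = 0.871). For single genes, 512 of 514 values kept their direction, not always their size, as Pde1a and Nell1 at -0.19 and -0.63 with no upper limit show. The exceptions were Fam19a1 with no upper limit on genes per nucleus, at 0.29 with ageing and -0.74 with treatment. The cause of these moves was not tested.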

Other observations

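Neat1, a long non-coding RNA of nuclear paraspeckles, stood at 22.8, 17.0 and 17.8 CPM in young AAV-EGFP mice, 161, 68.7 and 20.6 in aged AAV-EGFP mice, and 55.0, 46.8 and 42.9 in aged AAV-B3GNT3 mice. Its ageing change was 2.21 ± 0.51 (edgeR adjusted p = 0.24), and the lowest aged AAV-EGFP sample lay inside the young range. The AC149090.1 ageing change differed by 0.18 ± 0.23 from that of the other interneurons (edgeR adjusted p = 0.991).

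Genes outside the lists, picked from those with the highest ratio after their values were seen, also stood highest in the Lamp5-selected nuclei of all 9 samples. Fgf13, an intracellular regulator of sodium channels, was at 2928 raw CPM against 457 in Vip interneurons, the next class. Unc5c, a netrin receptor, was at 2577 against 501. Trpc5, a cation channel, was at 486 against 106 in Sst interneurons. Foxp2 had this pattern too, at 192 against 33.4, carried by the 59 nuclei described above. Foxo1, a transcription factor of insulin signalling that is in a list, was at 61.5 against 29.5 in Vip interneurons.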
